A study of Rattus norvegicus with 12 samples.

Results

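Serotonin acts on the hippocampus through a family of receptors, and the 9 receptor genes Htr1a, Htr1b, Htr2a, Htr2c, Htr3a, Htr4, Htr5a, Htr6 and Htr7 were examined together with Slc6a4, which encodes the serotonin transporter. Each gene was found by its Entrez number in the name of a probe set, and all 10 were measured among the 9962 genes of the array. The RNA came from the whole hippocampus of adult males bred selectively for 4 generations, killed at P102-107 per the labels, with 1 rat per array (Affymetrix RAE230A). Bred High Responder (bHR) rats come from a line selected for much movement in an unfamiliar place, and bred Low Responder (bLR) rats from a line selected for little. There were 6 arrays per line, and 1 of each line was marked by the submitters as failed, which left 5 against 5. Values are log2 expression, and differences are bHR minus bLR on that scale.

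Serotonin is made in neurons of the brainstem raphe, whose axons reach the whole hippocampus. All receptors but the channel subunit encoded by Htr3a act through G proteins: the type 1 and type 5 receptors lower cyclic AMP, the type 2 receptors activate phospholipase C, and the type 4, 6 and 7 receptors raise cyclic AMP. The transporter takes serotonin back up into the raphe axons, so its messenger RNA lies mainly in the cell bodies outside the hippocampus. Choroid plexus, the epithelium that makes cerebrospinal fluid and lies against the hippocampus, expresses Htr2c strongly, together with Ttr, which encodes transthyretin.

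Of the hippocampal neuron markers, 9 of 10 measured lay above every gene of a list of 20 that belong to other organs such as liver, muscle and pancreas, and Camk2a did not. The failed arrays had a mean correlation with the passing arrays of 0.683 (bHR replicate 1) and 0.899 (bLR replicate 5), against 0.983 to 0.993 among the 10 that passed. On bHR replicate 1, 8 of the 10 serotonin genes lay above the range of the passing arrays, and on bLR replicate 5, 5 lay above it and 1 below. The passing arrays differed in the loss of signal towards the 5' end of transcripts. In bLR replicate 3, bLR replicate 2 and bHR replicate 6 the 5' minus 3' value of the beta-actin control was -3.65, -2.89 and -2.30, against -1.95 to -1.36 on the other 7, and the same 3 had the lowest value for dap, a bacterial control RNA.

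Most of the serotonin genes gave a weak signal. The genes of other organs had means from 4.197 to 5.42 over the 10 arrays, and 8 of the 10 serotonin genes, with means from 4.62 to 5.17, fell inside that range. Of all genes 47.6% had a mean at or below its upper end. Htr2c, with a mean of 5.85, and Htr1a, with 5.51, lay above it. Probe sets differ in their own background, so these levels do not rank the genes, and a mean inside that range does not show that a transcript was absent. Htr2c and Htr1a also varied most between rats of 1 line. Their SDs within lines were 0.33 and 0.27, larger than those of 98.4% and 96.7% of all genes, whereas the SDs of the other 8 ran from 0.049 to 0.14.

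**Figure D1:**
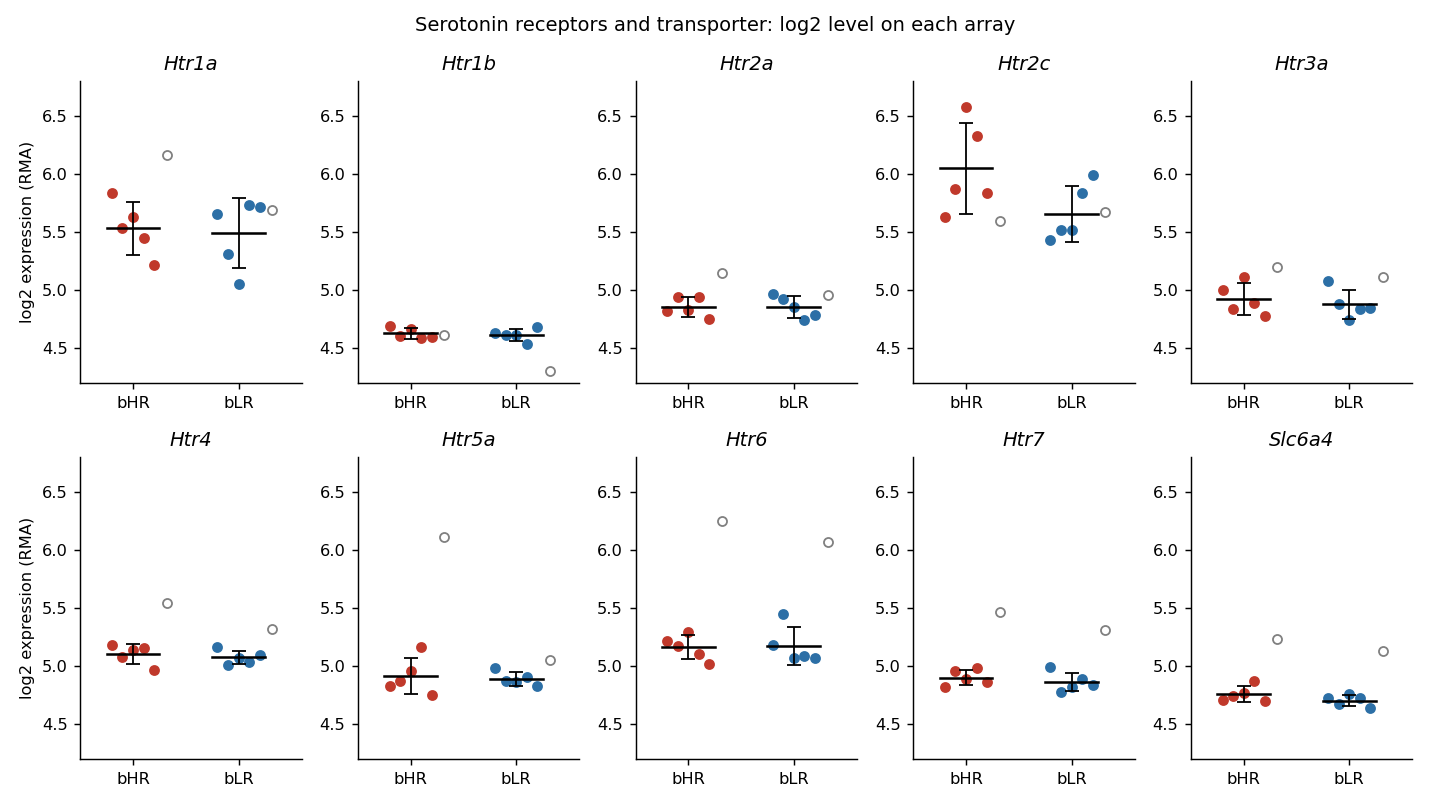
Log2 expression (vertical axes, RMA values) of the 10 serotonin genes on each array, by line. Filled points are the 5 passing arrays of a line, open grey points the failed arrays, and bars show the mean and SD of the passing arrays. The lines overlap for each of the 10 genes, and the points of Htr1a and Htr2c are spread most widely.

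No serotonin gene differed between the lines after adjustment over all genes, and in every one of the 10 the lines overlapped. Over the whole array limma called 0 of 9962 genes at an adjusted p of 0.05 (0%), and 293 (2.94%) had an unadjusted p under 0.05. With a trended and robust prior limma also called 0, with 265 at an unadjusted p under 0.05. Among the serotonin genes 1 of 10 had an unadjusted p under 0.05, Htr2c, which was higher in bHR as were 1.1% of all genes at that p. The lines did not overlap for 0.291% of all genes and for 0 of the 10. In a whole tissue, fewer cells of a type and less RNA per cell cannot be told apart.

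Htr2c, whose receptor signals through Gq and phospholipase C and whose RNA is edited in brain, had the widest difference of the 10. Its log2 level was 5.63 on bHR replicate 2, 5.87 on replicate 3, 6.58 on replicate 4, 6.33 on replicate 5 and 5.84 on replicate 6. In bLR it was 5.43 on replicate 1, 5.52 on both replicates 2 and 3, 5.84 on replicate 4 and 5.99 on replicate 6. The highest values were thus those of bHR replicates 4 and 5, which lay above every bLR array, while the other 3 bHR arrays lay among the bLR values. The bHR arrays averaged 6.05 ± 0.39 and the bLR arrays 5.66 ± 0.24 (SD, n = 5 each), and the difference was 0.39 (SE 0.18, 95% confidence interval 0.0038 to 0.78), or 1.31-fold. It did not pass over all genes (limma adjusted p = 0.992, unadjusted p = 0.0481). It was 0.26 without bHR replicate 4 and 0.24 once Ttr was entered as a covariate.

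The start of Htr2c is shown because it is the member with the lowest p between the lines and the one set against Ttr. RefSeq sequences of the 300 bases from 250 before to 50 after the start (assembly GRCr8) were found for 5 of the 10 genes, Htr1b, Htr2c, Htr5a, Htr6 and Htr7. The sequence below lies at chrX:115452940-115453239 on the plus strand, and capitals mark the match to the CCAAT box (CCAAT on either strand, here read as ATTGG), which begins 83 bases before the start.
Htr2c promoter: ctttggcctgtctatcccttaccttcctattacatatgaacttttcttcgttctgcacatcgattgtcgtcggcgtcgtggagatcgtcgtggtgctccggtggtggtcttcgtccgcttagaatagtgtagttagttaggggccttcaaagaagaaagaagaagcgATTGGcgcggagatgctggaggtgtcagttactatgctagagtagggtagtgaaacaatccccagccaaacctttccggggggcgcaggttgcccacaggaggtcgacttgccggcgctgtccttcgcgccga
A CCAAT match was present in 37.7% of 27457 such sequences and in 2 of the 5 serotonin genes. The Htr2c sequence held 22 CG pairs, more than 77.3% of all such sequences, whose median was 7. A match is a run of letters only, and nothing measured here bears on binding there.

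Htr1a encodes the receptor that couples to Gi and opens potassium channels in pyramidal and granule neurons, and that acts as an autoreceptor on raphe neurons. Its log2 level was 5.84, 5.53, 5.63, 5.45 and 5.21 on bHR replicates 2, 3, 4, 5 and 6. In bLR it was 5.66 on replicate 1, 5.31 on replicate 2, 5.06 on replicate 3, 5.73 on replicate 4 and 5.72 on replicate 6. Each line therefore held both high and low arrays, and the means, 5.53 ± 0.23 for bHR against 5.49 ± 0.30 for bLR (SD, n = 5 each), differed by 0.040 (SE 0.15, 95% confidence interval -0.28 to 0.36, limma adjusted p = 0.992). The direction was not settled: the difference was -0.099 after adjustment for the beta-actin value and -0.088 when the 3 lowest-dap arrays were left out, but 0.30 with the title number as a block. Of the passing arrays only replicates 2, 3 and 4 of each line share a title number with the other line. The blocked fit takes the line difference from these arrays alone, and bLR replicates 2 and 3 are among those of lowest dap.

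The remaining inhibitory receptors did not pass either. Htr1b, an autoreceptor on serotonin terminals and a heteroreceptor on other axons, ran from 4.59 to 4.69 in bHR and from 4.54 to 4.69 in bLR, a difference of 0.014. Htr5a, whose receptor also couples to Gi, ran from 4.75 to 5.16 in bHR and from 4.83 to 4.98 in bLR, a difference of 0.024. Its highest value, 5.16, was that of bHR replicate 5, without which the difference was -0.038.

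Htr2a, the Gq-coupled receptor at which classical hallucinogens act, ran from 4.75 to 4.94 in bHR and from 4.75 to 4.96 in bLR. The difference was 0.0042, and -0.0076 after quantile normalization was repeated. Htr3a encodes the subunit of the serotonin-gated ion channel, found in the forebrain in interneurons. It ran from 4.78 to 5.11 in bHR and from 4.75 to 5.08 in bLR, a difference of 0.047 (SE 0.075), and -0.00019 after adjustment for the beta-actin value and 0.16 with the title number as a block. Of 10 measured interneuron markers 8 had a higher mean in bHR (median 0.099), against 50.4% of all genes, and 0 passed. The log2 of their summed signal was 10.72 to 11.07 in bHR and 10.59 to 10.99 in bLR. Their part in the Htr3a difference was not tested. Neither Htr2a nor Htr3a kept 1 direction under these settings.

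The Gs-coupled receptors also overlapped between the lines. Htr4, which is expressed by hippocampal principal neurons, ran from 4.97 to 5.18 in bHR and from 5.01 to 5.16 in bLR, a difference of 0.029 (SE 0.049). For Htr7 the ranges were 4.82 to 4.98 and 4.78 to 4.99, with a difference of 0.037 (SE 0.050). Htr6 was the only one of the 10 with a lower mean in bHR, by -0.0075 (SE 0.079). It ran from 5.02 to 5.29 in bHR and from 5.07 to 5.45 in bLR, where the top value was that of replicate 2. Its sign turned with all 12 arrays (0.024), with the title number as a block (0.029) and when the 3 lowest-dap arrays were left out (0.088).

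The transporter gene Slc6a4 had a log2 level of 4.71, 4.74, 4.76, 4.87 and 4.70 on bHR replicates 2 to 6. In bLR it was 4.72 on replicate 1, 4.67 on replicate 2, 4.75 on replicate 3, 4.73 on replicate 4 and 4.64 on replicate 6. The arrays of both lines lay within 0.23 of each other, inside the range of the genes of other organs. The difference was 0.055 (SE 0.043, 95% confidence interval -0.040 to 0.15, limma adjusted p = 0.992). Of the other measured raphe markers, Fev, the transcription factor that defines serotonin neurons, had a mean of 5.02, also inside that range. So did Slc18a2, with 4.87, and Gata3, with 4.81, whereas Ddc, with 5.62, and Maob, with 7.56, lay above it. Of 7 listed raphe markers 6 were measured, Slc6a4 itself among them, and Tph2 was not. All 6 had a higher mean in bHR (median 0.057), against 50.4% of all genes, and 0 passed. The log2 of their summed signal was 8.44 to 8.56 in bHR and 8.38 to 8.50 in bLR. Maob had the highest mean of the 6 and so weighed most in that sum. The part of raphe cells in the Slc6a4 difference was not tested.

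**Figure D2:**
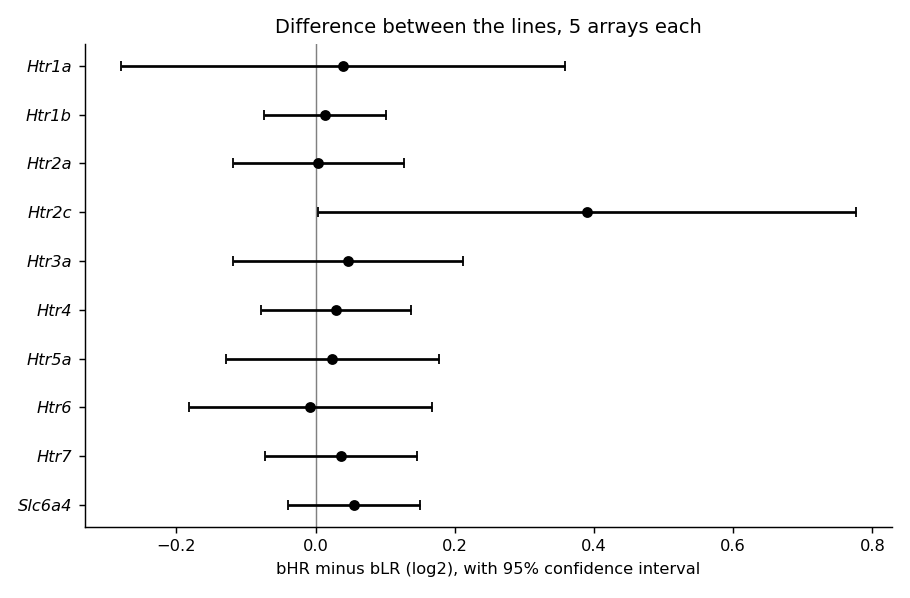
Difference between the lines (bHR minus bLR, log2, horizontal axis) for the 10 serotonin genes, with 95% confidence intervals from limma over 5 arrays per line. Every interval but that of Htr2c, 0.0038 to 0.78, includes 0, and that of Htr2c does not pass after adjustment over all genes.

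The intervals limit how large a difference these arrays allow. For the 8 genes other than Htr1a and Htr2c, the 95% confidence intervals of the fold change stayed between 0.882 and 1.16. They were 0.824 to 1.28 for Htr1a and 1.003 to 1.71 for Htr2c. These intervals refer to the RMA values, in which a weak signal sits on background and a fold change is compressed.

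The mean was higher in bHR for 9 of the 10 genes, against 50.4% of all genes, and their median difference was 0.033, against 0.00078 for all genes. Of the 20 genes of other organs, 12 (60%) were higher in bHR, with a median difference of 0.021. A small positive median was thus not particular to the serotonin genes. The 10 genes shared their arrays and moved together on some of them. On bHR replicate 6 all 10 lay below the mean of their line, and on bLR replicate 3 so did 9, whereas on bLR replicate 1, which had the least 5' loss, 9 lay above it. Without bHR replicate 4 the median was 0.015, without bHR replicate 6 it was 0.063, and after adjustment for the beta-actin value it was 0.0070. Over the alternatives that tested all 10 genes, between 7 and 10 had the higher mean in bHR.

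Whether the genes followed the loss of 5' signal was asked with a slope fitted within lines across all genes. A positive slope means a higher level on arrays with less loss. By limma 1321 of 9962 genes (13.3%) had a slope at an adjusted p of 0.05, of which 526 (5.28%) were positive and 795 (7.98%) negative. Without bLR replicate 3 the count was 713. At an unadjusted p under 0.05 there were 27.2%, and 47.7% of all estimates were positive. Among the serotonin genes 1 of 10 passed, Htr1a, with a slope of 0.31 log2 units per unit of the beta-actin value (SE 0.052, 95% confidence interval 0.20 to 0.43, limma adjusted p = 0.0028). Its level was 5.06 to 5.31 on the 3 arrays with the deepest loss and 5.45 to 5.84 on the other 7. This split restates the slope by which Htr1a was picked, and the share of all genes that split so was not counted.

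The slope of Htr1a passed in each of the 10 fits that left out 1 array, where it was 0.29 to 0.34 (limma adjusted p from 0.00102 to 0.04). Without all 3 arrays of deepest loss it was 0.16 (adjusted p = 0.943), and 0 genes passed in that fit, with 698 at an unadjusted p under 0.05. With all 12 arrays it was 0.34 (adjusted p = 0.114). The slope of Htr3a was 0.11 (limma adjusted p = 0.162) and that of Htr2c 0.16 (adjusted p = 0.439), and for the other 7 genes the adjusted p was 0.398 or more.

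**Figure D3:**
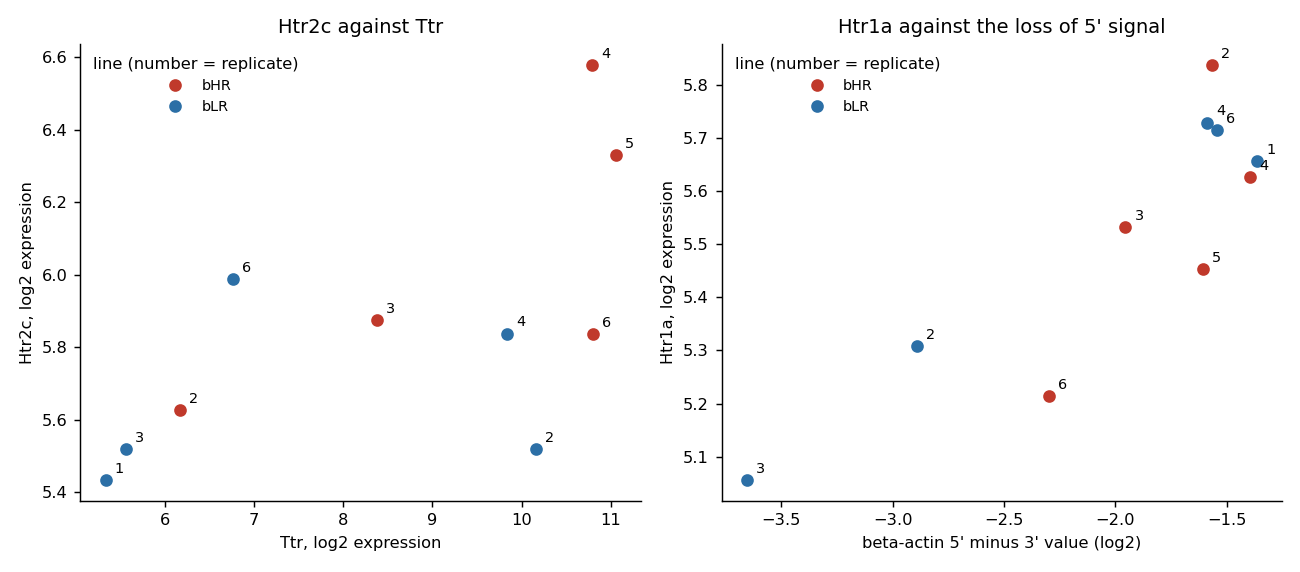
Left, log2 level of Htr2c (vertical axis) against that of Ttr (horizontal axis) on the 10 passing arrays. Right, log2 level of Htr1a against the beta-actin 5' minus 3' value. Each point is 1 array, coloured by line and numbered by replicate. Htr2c is highest on bHR replicates 4 and 5, where Ttr is 10.79 and 11.06, but bLR replicate 2 has a Ttr of 10.16 and an Htr2c of 5.52. Htr1a is lowest on the 3 arrays with the deepest loss.

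Whether Htr2c followed Ttr was asked across arrays, and no test of it passed after adjustment. Ttr was 5.34 to 6.77 on 4 arrays, 8.38 on bHR replicate 3 and 9.84 to 11.06 on 5 arrays, so the values were unevenly spread. Htr2c was 5.43 to 5.99 on the 4 arrays with little Ttr and 5.52 to 6.58 on the other 6, and these ranges overlapped. Over the 10 arrays Pearson's r was 0.631 (permutation p = 0.0503, adjusted over 2 relations 0.101) and Spearman's rho was 0.648 (permutation p = 0.0494, adjusted 0.0961). With line means removed r was 0.521 (permutation p = 0.117, adjusted 0.117) and rho was 0.564 (permutation p = 0.0961, adjusted 0.0961). When 1 array was left out, r ran from 0.55 to 0.78. Leaving out more arrays by their Ttr value narrows the range of Ttr, which can by itself lower r. The values that follow therefore do not show how many arrays carry the correlation. Without bLR replicates 1 and 3, the farthest from the median of Ttr, r was 0.423, and among the 6 arrays with more Ttr it was 0.437 (exact permutation test, p = 0.419) and rho was 0.200 (exact permutation test, p = 0.714). With line means removed and without bHR replicate 2 and bLR replicate 1, the farthest on that scale, r was 0.199. Each line alone holds 5 arrays, and no correlation was computed within a line.

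In the fit across all genes, the slope of Htr2c on Ttr within lines was 0.076 log2 units per log2 unit (SE 0.040, 95% confidence interval -0.012 to 0.16). It did not pass (limma adjusted p = 1.00, unadjusted p = 0.0844). By limma 0 of 9961 genes passed (0%), and 223 (2.24%) had an unadjusted p under 0.05, 1.5% with a positive slope. The slopes of the other 9 serotonin genes ran from -0.026 to 0.012. In all 4 of the 10 were positive, against 52.9% of all genes. The choroid plexus markers with the steepest slopes relative to their error were Sostdc1, which blocks BMP and Wnt signals outside the cell, with 0.12 (SE 0.021), Igfbp2, which binds insulin-like growth factors, with 0.11 (SE 0.021), and Enpp2, a lysophospholipase D, with 0.15 (SE 0.031). Of 17 markers tested, 15 had a positive slope and 8 an unadjusted p under 0.05. The slope estimate of Htr2c lay below those of these 3 markers, which were chosen as the steepest, and above those of the other 14, of which the next were Folr1 with 0.066 (SE 0.023) and F5 with 0.057 (SE 0.019). No difference between these slopes was tested.

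The choroid plexus markers were also compared between the lines. Of 18 measured markers 15 had a higher mean in bHR, against 50.4% of all genes, 0 passed, and the median difference was 0.089. The log2 of their summed signal was 9.77 to 11.64 in bHR and 9.58 to 11.02 in bLR, and without Ttr it was 9.64 to 10.05 and 9.49 to 9.86. Ttr itself differed by 1.91 (SE 1.19, limma adjusted p = 0.992), but by -0.073 with the title number as a block, where Igfbp2 also turned, from 0.13 to -0.081. In that same fit, which rests on the same-numbered arrays alone, Htr2c differed by 0.40. The part of choroid plexus in the Htr2c difference was not tested. With Ttr as a covariate that difference was 0.24 in place of 0.39, smaller by more than 1.5 times.

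Other genes had profiles over the 10 arrays that resembled those of the serotonin genes. Likeness was the Pearson r with line means removed. It is given as a description, since 13.3% of all genes followed the beta-actin value and 9961 genes were searched for each. The 5 most like Htr2c were Zc3h10 (r = 0.932), Sstr1, a somatostatin receptor (0.927), Fxyd6, a regulator of the sodium pump (0.912), Cyp2b12 (0.889) and Atp2b4, a calcium pump of the plasma membrane (0.888). Ttr stood at rank 583. For Htr1a the first were Lyst, a regulator of lysosome traffic (0.977), and Txnrd1, a thioredoxin reductase (0.970), both of which also followed the beta-actin value (limma adjusted p = 0.000398 and 0.00381).

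For Htr3a the most alike were Atrx (0.974) and Chrna2, a nicotinic receptor subunit (0.963), for Htr2a Zfp36 (0.923) and the glycolytic enzyme Aldoc (0.908), and for Htr1b Gulp1 (0.927) and Prkaa1, a catalytic subunit of AMP-activated kinase (0.895). They were Pcyt1b (0.953) and Tgm2 (0.945) for Htr4, Krt1 (0.968) and the potassium channel Kcnn3 (0.935) for Htr5a, Ghdc (0.954) and Drg2 (0.946) for Htr6, and Eps8l2 (0.948) and the phospholipase Plcb2 (0.945) for Slc6a4. For Htr7 the first gene carries no symbol here and the second was Mecr (0.936). None of the 10 serotonin genes was among the most alike of another.

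The rest of the serotonin pathway was examined in 6 lists with 70 measured genes of 82. None passed between the lines with limma, 1 of the 70 had an unadjusted p under 0.05, 49 were higher in bHR on average and 21 in bLR, and the median difference was 0.027. Of all genes 2.94% had such a p and 50.4% were higher in bHR. Of the other receptor genes, 3 of 5 were higher (median 0.00086). Htr3b, the partner subunit of Htr3a, differed by 0.081 (SE 0.047), Htr5b by -0.14 (SE 0.093) and Htr2b by -0.030 (SE 0.043). Htr3b, with a mean of 4.74, and Htr2b, with 4.39, lay inside the range of the genes of other organs, and Htr5b, with 5.45, just above it.

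Of 14 measured genes of synthesis, packaging, uptake and breakdown 0 passed, 10 were higher and 4 lower, with a median of 0.013. Of the 18 listed, Tph1, Tph2, Spr and Slc29a4 were not measured, so serotonin synthesis was covered only in part. Slc22a3, a low-affinity monoamine transporter, differed by 0.071 (SE 0.043), Maob, a monoamine oxidase, by 0.056 (SE 0.059), and Ddc, which makes serotonin from its precursor, by 0.067 (SE 0.072). The mean of Slc22a3, 4.32, lay inside the range of the genes of other organs. The differences of all 14 lay between -0.047 and 0.071.

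In the lists of signalling genes downstream of the receptors no gene passed either. Of 11 in the Gi list 9 were higher (median 0.053). Gnai1, an inhibitory G protein subunit, averaged 7.61 ± 0.20 over the 5 bHR arrays and 6.95 ± 0.93 over the 5 bLR arrays (SD). The difference of 0.66 (SE 0.36) was 0.30 without bLR replicate 3. Gnai3 differed by 0.14 (SE 0.067) and Rgs7, which speeds the shutdown of these G proteins, by -0.13 (SE 0.069). Of 12 in the Gq list 8 were higher (median 0.029), but the median was -0.047 with all 12 arrays, -0.016 without bLR replicate 3, -0.0089 with the beta-actin covariate and -0.028 without the 3 lowest-dap arrays. The differences were 0.14 (SE 0.073) for Plcb1 and 0.054 for Plcb4, both phospholipases C, and 0.10 for Rgs2, a regulator of Gq. Plcb4, with a mean of 4.49, lay inside the range of the genes of other organs. Rgs2 differed by 0.025 without bLR replicate 3. Of 16 in the Gs list 11 were higher (median 0.032), against 5 (median -0.038) with all 12 arrays. The differences were 0.16 (SE 0.081) for Prkaca, the catalytic subunit of protein kinase A, -0.078 for the adenylate cyclase Adcy3 and 0.084 for the phosphodiesterase Pde4b.

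Of 12 receptor partners and RNA editing enzymes 8 were higher (median 0.020). Anxa2 forms a complex with the Htr1b- and Htr4-binding protein encoded by S100a10. Among the genes named from the 6 lists for their small p, it was the only 1 whose lines did not overlap. Of all genes 0.291% did not overlap, or 0.1% with bHR the higher line. Anxa2 averaged 5.89 ± 0.22 over the 5 bHR arrays and 5.64 ± 0.053 over the 5 bLR arrays (SD). The difference was 0.26 (SE 0.092, limma adjusted p = 0.992, unadjusted p = 0.0168), and 0.16 without bHR replicate 2. S100a10 itself differed by -0.11 (SE 0.074), and Stx1a, a synaptic fusion protein that binds the transporter, by 0.28 (SE 0.18), or 0.13 without bLR replicate 3.

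The slope on the beta-actin value passed for 13 of these 70 genes, 9 positive and 4 negative, beside 13.3% of all genes. Gnai1 had a slope of 0.84, Gnai3 of 0.14, Rgs2 of 0.22 and Stx1a of 0.34, all of which passed (limma adjusted p up to 0.0265). Htr5b had a slope of -0.17 (limma adjusted p = 0.0370). The level of these genes therefore moved with the beta-actin value within the lines. With that value as a covariate their differences between the lines came to 0.29 for Gnai1, 0.081 for Gnai3, 0.0033 for Rgs2, 0.13 for Stx1a and -0.064 for Htr5b, each moved towards 0 by more than 1.5 times. The beta-actin value was -2.30 to -1.39 in bHR and -3.65 to -1.36 in bLR. A gene named for its slope shifts with that covariate wherever the lines differ in it, so these shifts are no separate test. Without the 3 lowest-dap arrays the differences of these genes were 0.13, 0.072, 0.024, 0.16 and -0.12 in the same order.

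**Figure D4:**
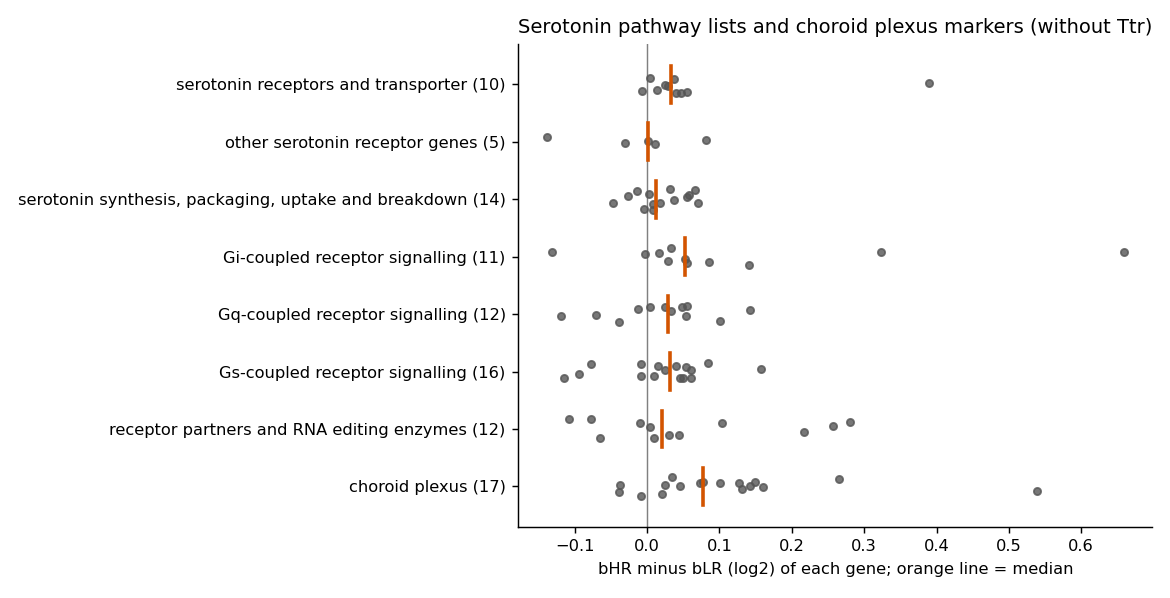
Difference between the lines (bHR minus bLR, log2, horizontal axis) of each measured gene of the serotonin lists and of the choroid plexus markers without Ttr. Points are genes, orange lines medians, and numbers in brackets count the genes. The medians of the serotonin lists lie between 0.00086 and 0.053, that of the 17 choroid plexus markers at 0.078, and no gene passes after adjustment.

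None of the 10 genes had a slope on the locomotor score that passed. Scores were 1178 to 1328 beam breaks in bHR and 319 to 557 in bLR among the 10 rats. Within lines the slopes ran from -0.021 (Slc6a4) to 0.024 (Htr1a) log2 units per 100 beam breaks, and the smallest unadjusted p was 0.4715. Across the array limma called 0 genes (0%), with 410 (4.12%) at an unadjusted p under 0.05, 1.68% with a positive slope, and 41.3% of all estimates were positive. The 95% confidence interval of the slope was widest for Htr2c, from -0.27 to 0.27, so for that gene only larger slopes lie outside it. It was narrowest for Htr1b, from -0.052 to 0.069.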

How the data were processed

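Hippocampal RNA of 12 rats was measured, 1 rat per array. The authors deposited log2 expression from RMA. The submitters' processing notes name affy 1.54.0, and per the series' design text probes were grouped by Entrez gene with custom definitions 19.0.0. RMA normalizes by quantiles, so differences are relative to the whole array. Probe values were not used here. The 57 control probe sets were left out, which left 9962 genes, of which 9831 were named from RefSeq (GRCr8) and 114 stayed unnamed. No read depth exists for arrays; their number limits the precision. Replicates are numbered in accession order.

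The test was limma's moderated fit (version 3.58.1, R 4.3.3, lmFit and eBayes, Benjamini-Hochberg over all genes), with line as the term. Slopes used values centred within line. Correlations used 100000 permutations. Steps were tested on simulated data. Beside the serotonin genes, named genes are the 3 with the smallest p of each pathway list, Ttr and the 3 steepest choroid markers on Ttr, and the genes most alike (5 for Htr2c, 2 for others). Fev, Slc18a2, Gata3, Camk2a, Folr1 and F5 were named after their values were seen. The members and lists were chosen with earlier results of these data known. Alternatives were all 12 arrays, each array left out, the lowest 25% of genes left out, other normalizations and prior, covariates, a title-number block and 3 arrays left out. Of these, the beta-actin slope without the 3 arrays and the locomotor slope with the beta-actin covariate were added after seeing the data.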

Additional observations from a re-analysis of the deposited data

How the results depend on the processing

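The count of genes called between the lines, on Ttr and on the locomotor score was 0 under every alternative run. For the beta-actin slope it was 15 with all 12 arrays, 0 when the 3 lowest-dap arrays were left out and 713 to 1302 when 1 array was left out (lowest without bLR replicate 3). The Htr2c and Ttr correlation was 0.66 with all 12 arrays (permutation p = 0.0147) and 0.55 to 0.78 when 1 array was left out. Of 811 values of single genes under alternatives, 766 kept their direction and side of the threshold, 2 lost a call (the Htr1a slope) and 43 changed sign, none of them called; the causes were not tested. With all 12 arrays the line difference was 0.024 for Htr6, -0.11 for Maob and -0.11 for Plcb1, and the slope on Ttr was -0.065 for Htr5a, -0.074 for Htr6 and -0.034 for Slc6a4. Repeated quantile normalization gave -0.0076 for Htr2a. The beta-actin covariate gave -0.099 for Htr1a and -0.00019 for Htr3a, and the Ttr covariate -0.081 for Igfbp2. When the 3 lowest-dap arrays were left out the difference was -0.088 for Htr1a, 0.088 for Htr6 and 0.0059 for Htr2b. With the mean of the other choroid markers in place of Ttr the slopes per log2 unit of that mean were 1.82 for Htr2c, 0.71 for Htr5a, 0.39 for Htr6, 0.070 for Htr2a, 0.11 for Htr3a and 0.058 for Htr7, none of which passed (limma adjusted p = 0.999). Leaving out 1 array moved the line difference from -0.070 to 0.12 for Htr1a, -0.0053 to 0.031 for Htr1b, -0.023 to 0.032 for Htr2a, -0.00073 to 0.098 for Htr3a, -0.038 to 0.064 for Htr5a, -0.041 to 0.063 for Htr6 and 0.26 to 0.50 for Htr2c. It moved the slope on Ttr from -0.061 to 0.0079 for Htr1a, -0.017 to 0.0012 for Htr2a, -0.021 to 0.0043 for Htr3a, -0.00070 to 0.022 for Htr5a, -0.014 to 0.027 for Htr6, -0.016 to 0.0080 for Htr7 and -0.0016 to 0.0084 for Slc6a4. The pathway list medians ran from -0.047 (Gq list, all 12 arrays) to 0.16 (Gi list, title-number block) over the alternatives, apart from the filter on low genes, which left 1 gene, Htr5b, of the other receptors.

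Among the passing arrays the numbers 9, 10 and 11 occur in the titles of both lines. Same-numbered arrays deviated from their line means with correlations of -0.33, 0.26 and 0.41, so the numbers were not taken to pair the arrays. The fit with the title number as a block takes the line difference from these same-numbered arrays alone. In that fit Htr2c differed by 0.40 (limma adjusted p = 0.245), Htr1a by 0.30, Htr3a by 0.16, Htr6 by 0.029, Ttr by -0.073 and Igfbp2 by -0.081. There 0 genes were called, with 1468 at an unadjusted p under 0.05. Weak signal, with 8 of 10 members in the range of genes of other organs, and 5 arrays per line both limit these results.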
